A study of Sorghum bicolor and Setaria italica and Zea mays with 20 samples.

Results

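Stretches of chromatin that DNaseI cuts readily, the DNaseI-hypersensitive sites (DHSs), mark DNA that proteins can reach, and within them a bound transcription factor shields a short stretch from cutting, which is read as a digital genomic footprint (DGF). Here the subject is the opposite case in *Z. mays*, accessible regions that were listed in both leaf tissues yet carried no footprint in either. Of 48547 bundle-sheath DHSs on chromosomes 1 to 10, 31644 (65.2%) shared at least 50% of their length with a whole-leaf DHS that also shared at least 50% of its own. Among these shared DHSs, 3217 overlapped no DGF of either tissue in the bundle-sheath or the whole-leaf DHS, which is 10.2% (95% Wilson interval 9.84% to 10.5%). These members were selected on the listed positions of DHSs and DGFs, so their lack of footprints is the choice itself and not a result. Width and enrichment come from the same libraries as the footprints and are given as descriptions, with no test.

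Footprinting programs search a DHS for a short dip in cutting flanked by many cuts, so that a footprint is a call made from reads and not a direct view of a protein. In C4 leaves such as those of *Z. mays*, carbon dioxide is first fixed in the mesophyll and then released and refixed in the bundle sheath, the ring of cells around each vein. Genes of this pathway are expressed in one cell type or the other, which is why chromatin of the bundle sheath was set beside that of the whole leaf. Since bundle sheath is part of the leaf, the whole-leaf samples include its chromatin as well, though not every bundle-sheath DHS was listed for whole leaf.

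The series holds 20 samples from 4 grasses, of which the 2 bundle-sheath and 2 whole-leaf samples of *Z. mays* gave the lists used here. Per the labels all 4 came from the third leaf of seedlings 18 d after germination, while the study's methods name the fourth leaf as well. They were harvested between 4 and 6 h into the light period, and each sample pooled leaves of many plants. Bundle-sheath strands were obtained by blending leaves and filtering, and the plant line is not given in the sources used here. The authors combined the replicates into 1 DHS list and 1 DGF list per tissue, mapped to AGPv3. The lists give neither read depth nor a spread between replicates, and a region open in few cells cannot be told apart from one partly open in many. Whether the strands held only bundle-sheath cells was not measured. No gene annotation or sequence of AGPv3 was used, so regions are given by position.

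The 2 tissues contributed unequally to the lack of footprints. In the bundle-sheath list 28.6% of all 48547 DHSs on the 10 chromosomes carried no bundle-sheath DGF, and in the whole-leaf list 44.2% of 43539 carried no whole-leaf DGF. Shared DHSs were below these levels, with 15.0% lacking a bundle-sheath DGF and 37.0% lacking a whole-leaf DGF, whereas 54.0% of the bundle-sheath DHSs that were not shared lacked one. Besides the members, 18425 shared DHSs (58.2%) had DGFs of both tissues, 8459 (26.7%) of the bundle sheath only, and 1517 (4.79%) of the whole leaf only. The remaining 26 held just a footprint of the tissue other than that of the DHS. Of shared DHSs with no bundle-sheath DGF, 68.1% (66.8% to 69.4%) also had no whole-leaf DGF. Of those with a bundle-sheath DGF, 31.5% lacked a whole-leaf DGF (30.9% to 32.0%). Both shares are drawn from the footprint calls that define the classes, so they are not a separate result. The deposited bundle-sheath list is longer, with 164918 DGFs against 79787 for whole leaf, so the classes with a footprint in only 1 tissue are not evenly matched. For its whole-leaf DHSs the study reports a larger part with a footprint than the deposited maize lists gave here. Why they differ was not tested, and whether these lists are the sets that the study reports was not checked.

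The names of the footprints are numbered differently in the lists. Footprint names in the bundle-sheath list start at 48889, which is 1 above its 48888 DHSs. Those in the whole-leaf list start at 32407 although 43868 DHSs are listed, and 2.08% of whole-leaf DGFs on the 10 chromosomes lay outside every listed whole-leaf DHS, compared with 0 of 164252 in the bundle sheath. Ranked by score, 71.3% of the whole-leaf DHSs from rank 1 to 32406 held a whole-leaf DGF and 11.7% of those beyond did. Of the 2000 DHSs ranked just above that position 27.8% had one (25.8% to 29.8%), and of the 2000 just below it 23.4% (21.6% to 25.3%). Of the members, 2034 (63.2%) ranked beyond 32406 in whole leaf, as against 3.95% of the shared DHSs with DGFs in both tissues. The choice of the latter class by its whole-leaf DGFs in large part fixes this contrast, since few DHSs beyond that rank held one. Of the 8459 shared DHSs with a bundle-sheath DGF only, which likewise lack a whole-leaf DGF, 3554 ranked beyond 32406. Of the 1517 with a whole-leaf DGF only, 195 did. Restricted to whole-leaf ranks up to 32406 the members numbered 1183, or 4.71% of shared DHSs. Whether all deposited whole-leaf DHSs were searched for footprints was not tested.

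Members were narrow compared with DHSs footprinted in both tissues. The median width in the bundle-sheath list was 1170 bp (95% interval of the median 1131 to 1210 bp) for members and 2457 bp (2428 to 2489 bp) for shared DHSs with DGFs in both tissues, a ratio of 0.476. In the whole-leaf list the medians were 1117 and 2451 bp. DHSs with a footprint in only 1 tissue lay between, at 1718 bp where it was in the bundle sheath and 1423 bp where it was in the whole leaf. The middle 90% of members spanned 352 to 3378 bp, and that of the footprinted DHSs 855 to 6085 bp, so the classes overlapped widely. Regions under 500 bp made up 11.8% of the members and 0.537% of the footprinted DHSs, while regions over 4000 bp made up 2.77% and 20.9%. The ratio of median widths ran from 0.425 on chromosome 6 to 0.530 on chromosome 8 and was below 1 on all 10 chromosomes.

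**Figure D1:**
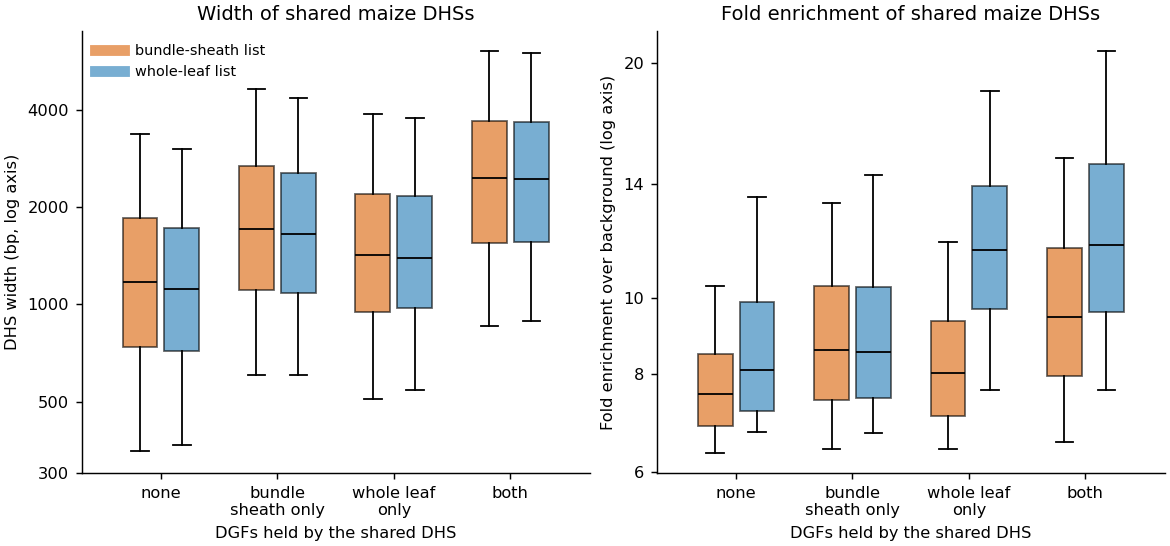
Width in bp (left) and fold enrichment (right), both on log axes, of shared maize DHSs by the footprints they hold, with the bundle-sheath list in orange and the whole-leaf list in blue. Boxes give quartiles around the median and whiskers the 5th and 95th percentiles, and members (none) are narrowest, at medians of 1170 and 1117 bp, with overlapping ranges.

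Members also had low values in the peak caller's measures. Column 7 of the lists, the fold enrichment of reads at the summit over background, had a median of 7.55 in the bundle-sheath list for members and 9.46 for DHSs footprinted in both tissues, a ratio of 0.798. In the whole-leaf list the medians were 8.09 (8.09 to 8.21) and 11.7 (11.7 to 11.8), a ratio of 0.691. The bundle-sheath ratio ran from 0.764 to 0.813 over the 10 chromosomes and the whole-leaf ratio from 0.671 to 0.732. The least enriched DHSs of the lists stood at 6.14 and 6.46, so the medians of members were near the low ends of the lists. Fold values of different lists are not on a shared scale. The DHSs with a whole-leaf DGF only were split, with a whole-leaf median of 11.5, close to that of fully footprinted DHSs, but a bundle-sheath median of 8.03, close to that of members.

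The −log10 q, the peak caller's significance on a log scale, separated the classes further. Its median was 10.7 for members and 19.3 for DHSs footprinted in both tissues in the bundle-sheath list, and 13.8 and 31.2 in the whole-leaf list. In both lists 75.2% of members lay below the list's median −log10 q, compared with 7.63% of the DHSs footprinted in both tissues. The classes with a footprint in only 1 tissue lay between, at 37.3% for the bundle sheath and 33.4% for the whole leaf. Only 157 members (4.88%) lay above the median of both lists, where 68.7% of the footprinted DHSs lay, and there the members were 1.07% of shared DHSs, with median fold ratios of 1.00 in bundle sheath and 0.992 in whole leaf.

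Sorting the shared DHSs into 10 bands of equal number gave the share of members along each measure. By bundle-sheath width, the narrowest band of 175 to 825 bp contained 31.7% members (30.1% to 33.4%) and the widest, from 4620 bp up, 1.55%. By bundle-sheath fold the share went from 22.7% in the lowest band to 0.916% in the highest, though it was 9.07% in band 5 and 9.64% in band 6. By bundle-sheath −log10 q it went from 46.6% (44.9% to 48.4%), 22.0%, and 11.2% in the lowest 3 bands to 0.537% in the highest, and by whole-leaf −log10 q from 38.4% to 0.411%. The shared DHSs were next sorted into 5 bands by width and 5 by bundle-sheath −log10 q together. In the lowest band by −log10 q, membership was 47.6% among the narrowest and 15.9% among the widest DHSs. Among the narrowest DHSs it was 3.32% in the highest band by −log10 q. Where both were highest, 1 of 1766 shared DHSs was a member. Width, significance, and footprint calls come from the same reads, and the part of each in membership was not tested.

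**Figure D2:**
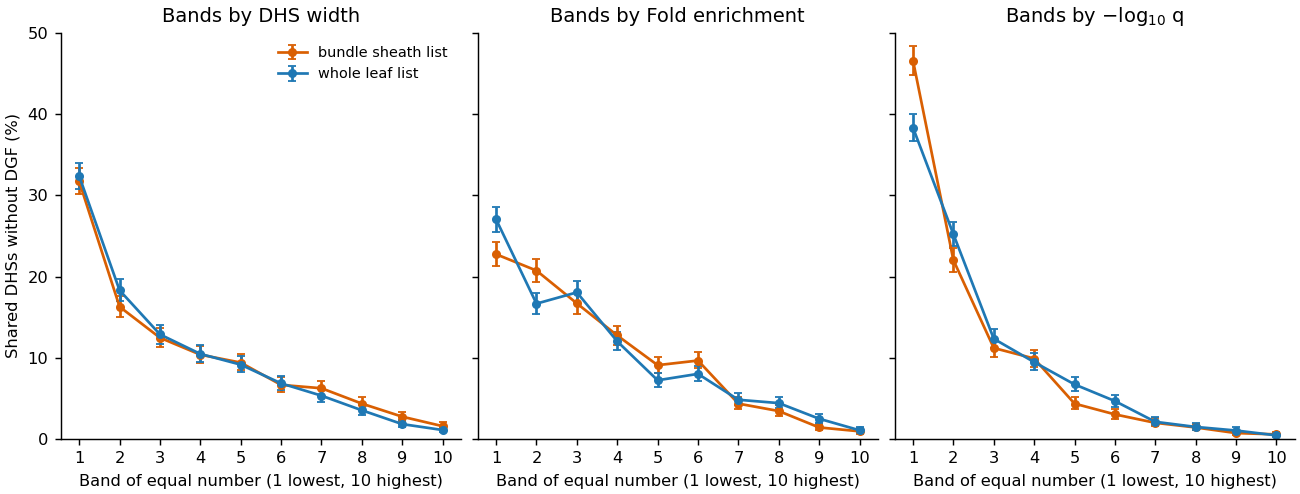
Percent of shared maize DHSs without any DGF (y axis) in 10 bands of equal number by width, fold enrichment, and −log10 q (x axes, lowest band at left), with bands drawn from the bundle-sheath list in orange and the whole-leaf list in blue and bars for 95% Wilson intervals. The share was highest, 46.6%, in the lowest band by bundle-sheath −log10 q and under 2% in the highest band of each of the 6 series.

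Fewer footprints did not simply mean less width. Shared DHSs with exactly 1 DGF, the nearest neighbours of the members outside the rule, numbered 1764 and had a median bundle-sheath width of 946 bp, below the 1170 bp of the members. Their bundle-sheath −log10 q was higher, at a median of 13.7 against 10.7, as was their whole-leaf −log10 q, at 17.8 against 13.8. With 2 DGFs the median width was 1124 bp and the −log10 q 14.5, and with 3 DGFs 1320 bp and 15.6. From 0 to 3 DGFs, the members thus had the lowest median significance but not the lowest median width.

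Many members carried fold values that recur across the list. As background, a peak caller that sets reads against a genome-wide level gives the same fold and the same significance to each region with an equal pile-up of reads. Whether equal pile-ups gave the recurrent values here was not tested. In the bundle-sheath list 25 fold values, from 6.14 to 17.5, were each carried by 50 or more DHSs, and in the whole-leaf list 34 values, from 6.74 to 22.0. The DHSs at each of these values had 1 −log10 q, except at the bundle-sheath fold of 16.1, where there were 2. Such a value was found for 61.8% of members (60.1% to 63.5%) in the bundle-sheath list and for 68.9% (67.3% to 70.5%) in the whole-leaf list. Among DHSs footprinted in both tissues the shares were 19.0% and 18.9%. The other classes lay between, at 54.3% and 53.4% with a whole-leaf DGF only and 32.8% and 43.5% with a bundle-sheath DGF only. Recurrent fold values were thus not confined to members. Of the shared DHSs with a recurrent fold in both lists 23.4% were members, and of those with one in neither list 4.26% were.

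Among shared DHSs at the lowest recurrent bundle-sheath fold of 6.14, 22 of 30 were members (73.3%). At 6.61, the most frequent fold value of that list, 336 of 490 were (68.6%), and at 7.55 the count was 312 of 676 (46.2%). At 10.4 it was 9.41%, and at 14.2 it was 2.09%. In whole leaf the share was 52.4% at 6.74 and 37.8% at 8.09. Recurrent and other fold values also differed at like significance. In the lowest of 5 bands by bundle-sheath −log10 q, 53.0% of DHSs with a recurrent fold and 22.2% of the others were members, and in the highest 1.53% and 0.281% were, with the same order in the 3 bands between. Within these bands, which were chosen after seeing the data, the ratio of median bundle-sheath folds turned, with a median over the bands of 1.10. At like bundle-sheath significance members thus had the higher bundle-sheath fold, while their whole-leaf fold stayed lower, at a ratio of 0.830.

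**Figure D3:**
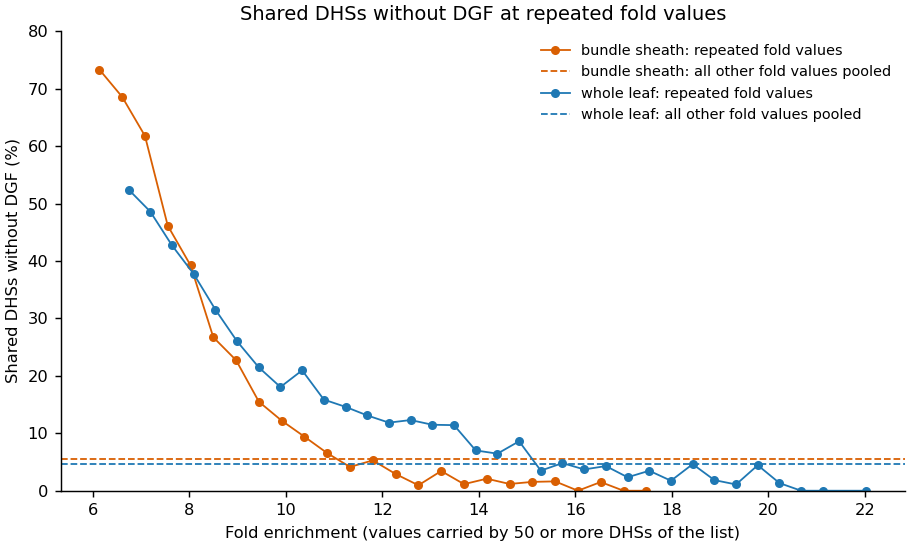
Percent of shared maize DHSs without any DGF (y axis) at each fold enrichment carried by 50 or more DHSs of a list (x axis), for the bundle-sheath list in orange and the whole-leaf list in blue. Dashed lines give the share over all other fold values, 5.45% and 4.66%, and the share at recurrent values went from 73.3% and 52.4% at the left to 0 at the right.

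Strong members were rare, yet the most enriched region of the whole bundle-sheath list was one of them. It lay on chromosome 4 from 172453718 to 172454020, was 303 bp wide, and had a fold of 51.0, which ranked 1 of 48888. Its whole-leaf partner, from 172453694 to 172454019, ranked 5 of 43868 with a fold of 40.9, and the summits were 7 bp apart. The nearest DGF of either tissue was 94814 bp away. The next member by fold lay on chromosome 7 from 37452783 to 37453186, 404 bp wide, with folds of 25.0 in bundle sheath and 30.6 in whole leaf and no DGF for 66317 bp. The third, on chromosome 4 from 225646632 to 225646895, was 264 bp wide, with folds of 17.9 and 15.3 and summits at the same base. These 3 regions were as narrow as they were enriched. Of the 70 shared DHSs with a bundle-sheath fold over 20, 2 were members, of 303 and 404 bp, whereas the 60 footprinted in both tissues were 494 to 4455 bp wide with a median of 1444 bp.

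The widest members were weakly enriched. On chromosome 2 from 68727451 to 68735947, a DHS of 8497 bp had a bundle-sheath fold of 6.85, and its whole-leaf partner of 6474 bp a fold of 7.09, with no DGF within 161481 bp. The next lay on chromosome 5 from 140971248 to 140979265, 8018 bp wide in bundle sheath but 4389 bp in whole leaf, with folds of 9.48 and 8.99. The third, on chromosome 9 from 46955872 to 46962838, measured 6967 and 3778 bp with folds of 7.41 and 7.19. In the latter pairs of DHSs the summits were 3230 and 3581 bp apart, and the shared stretch came to 54.7% and 52.0% of the longer DHS. The 89 members over 4000 bp had bundle-sheath folds of 6.16 to 13.2, with a median of 7.91.

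The narrowest members included 1 at a chromosome end. The narrowest of all, 175 bp in bundle sheath and 168 bp in whole leaf, lay on chromosome 9 from 156892431 to 156892605, where the last listed position of that chromosome is its own end. Its folds were 12.7 and 9.89. The others were 188 bp on chromosome 4 from 130273083 to 130273270, with folds of 8.03 and 7.64, and 198 bp on chromosome 6 from 16152742 to 16152939, with folds of 6.25 and 6.95. All 3 had summits within 11 bp of those of their partners.

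Positions and sizes of the DHSs in the lists differed somewhat for a member. The shared stretch was a median of 85.6% of the longer DHS in members and 92.7% in those with DGFs in both tissues. The width in bundle sheath over that in whole leaf had a median of 1.02 (1.02 to 1.03) in members, where 56.0% were wider in bundle sheath, and of 0.999 in the footprinted class, where 49.2% were. Summits lay a median of 69 bp apart in members (65 to 75 bp) and 113 bp apart in the footprinted class, and within 50 bp in 41.5% and 32.9%. DHSs with a whole-leaf DGF only were like the members, at 73 bp and 40.7%. Those with a bundle-sheath DGF only were not, at 123 bp and 30.7%. Summit distances were not compared at like width. The summit stood off the centre of the bundle-sheath DHS by a median of 17.3% of its width in members and 18.9% in the footprinted class.

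Some members ranked very differently in the tissues. Ranks were taken as shares of each list, since fold itself is not comparable between lists, and 54.3% of members ranked higher in the bundle sheath, compared with 45.7% of the DHSs footprinted in both tissues. The member with the strongest lean to the whole leaf lay on chromosome 1 from 284884280 to 284884610, with a whole-leaf fold of 21.6 at rank 761 and a bundle-sheath fold of 8.97 at rank 17219. On chromosome 10 from 62755779 to 62756605 the folds were 26.1 in whole leaf and 13.2 in bundle sheath, and between 245958836 and 245959920 on chromosome 1 they were 17.6 and 7.17. The strongest leans to the bundle sheath were on chromosome 6 from 11431870 to 11432336, with a bundle-sheath fold of 15.6 at rank 801 and a whole-leaf fold of 7.64 at rank 33259. Folds of 15.1 and 7.19 were found both on chromosome 1 between 203339051 and 203339359 and on chromosome 6 between 15646048 and 15646456. All but 2 of these 6 members were under 500 bp wide in bundle sheath. With 1 list per tissue, no error can be attached to a difference in rank.

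Position along the chromosome was not used to choose the members. They were spread more evenly than DHSs with DGFs in both tissues, which were denser toward the chromosome ends. The centre lay in the middle 20% of the chromosome for 19.2% of members (17.9% to 20.6%) and for 13.6% of DHSs with DGFs in both tissues (13.1% to 14.1%), a difference of 5.58 percentage points (95% interval 4.17 to 7.06). The outer 40%, counted as the first and the last 20% together, held 41.2% of members and 49.7% of the footprinted class. With a footprint in only 1 tissue the middle share was 15.7% for the bundle sheath and 18.6% for the whole leaf. Shared DHSs with exactly 1, 2, and 3 DGFs had middle shares of 17.5%, 17.8%, and 17.5%, nearer to that of members. Chromosome length was taken as the largest listed position, and centromeres were not placed.

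**Figure D4:**
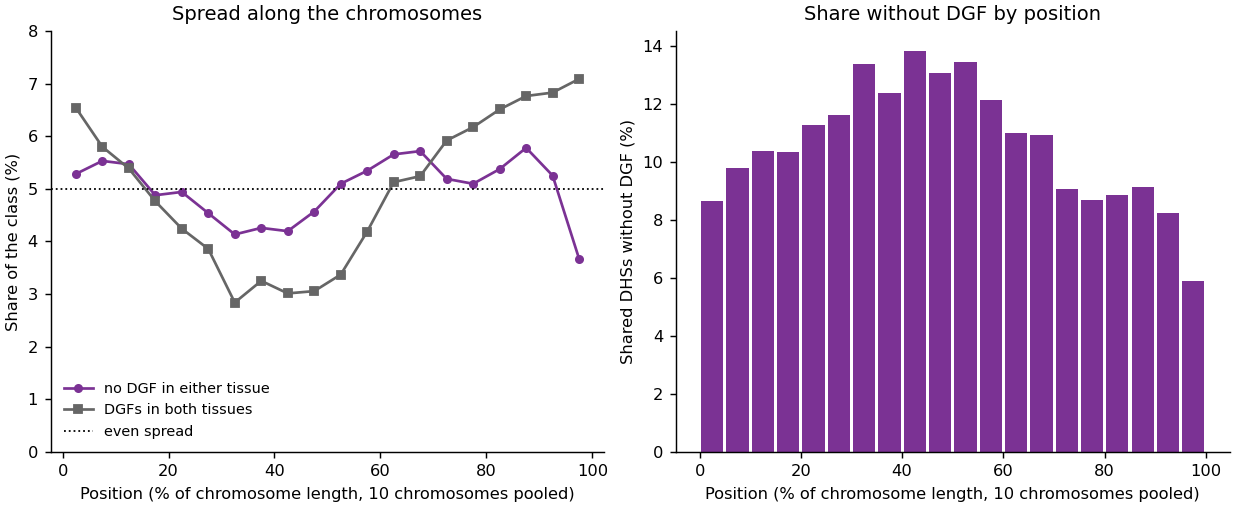
Left, percent of members (purple) and of shared DHSs with DGFs in both tissues (grey) in 20 bins of relative chromosome position (x axis, chromosomes 1 to 10 pooled), where 5% per bin is an even spread. Right, percent of shared DHSs without DGF in the same bins, with its highest value of 13.8% just before the chromosome middle and its lowest of 5.87% in the last bin.

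Read from the side of all shared DHSs, 13.0% of those in the middle 20% were members and 8.82% of those in the outer 40%, and the middle exceeded the outer part on 10 of 10 chromosomes. In bins of 5% of chromosome length, the share was 8.65% in the first bin, highest at 13.8% between 40% and 45%, and lowest at 5.87% in the last. Comparing members directly with the footprinted class, the middle share was larger in members on 9 of 10 chromosomes. It was 22.8% against 10.1% on chromosome 2 and 19.2% against 11.9% on chromosome 1. On chromosome 9 the values were close, at 15.9% and 15.1%, and chromosome 10 was the exception, at 19.9% and 20.0%. Members had the larger middle share in each of 5 bands of shared DHSs by bundle-sheath −log10 q, from 17.9% against 14.7% in the highest band, which held 39 members, to 23.6% against 13.8% in the band below it. Averaged over 5 bands of width it was 4.82 percentage points and over 5 bands of fold 7.65. Neighbouring DHSs are not independent, so these intervals are too narrow.

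The share of members among shared DHSs varied moderately between chromosomes. Chromosome 2 had the highest, 12.1% (11.1% to 13.2%), followed by chromosome 4 with 11.7% (10.7% to 12.8%) and chromosome 10 with 11.6% (10.4% to 13.0%). Chromosome 7 had the lowest, 8.07% (7.08% to 9.20%), below chromosome 3 with 9.07% (8.16% to 10.1%). The intervals of neighbours in this order overlapped, and those of chromosomes 2 and 7 did not. Chromosome 1, the longest, had the most members, 464, and chromosome 7 the fewest, 205. Per Mb there were 1.16 members on chromosome 7 and 1.83 on chromosome 2, while the footprinted class varied between 8.23 and 9.80 per Mb.

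**Figure D5:**
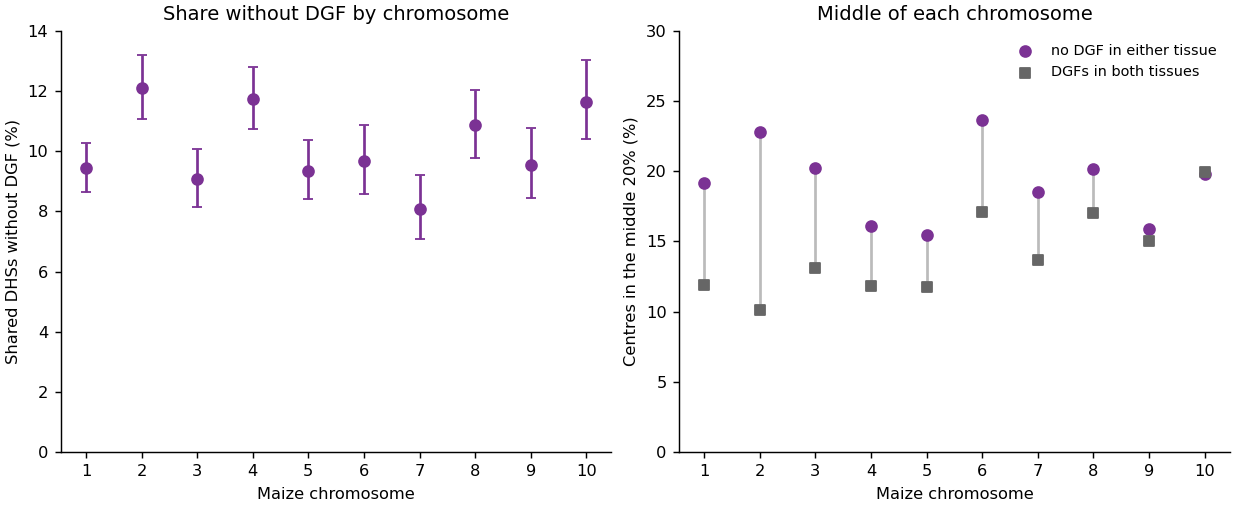
Left, percent of shared maize DHSs without DGF by chromosome with 95% Wilson intervals, from 8.07% on chromosome 7 to 12.1% on chromosome 2. Right, percent of members (purple circles) and of DHSs footprinted in both tissues (grey squares) with centres in the middle 20% of each chromosome, where the circle is above the square on 9 of 10 chromosomes.

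Most members had no other member beside them, in a class that makes up 10.2% of shared DHSs. They still followed one another more often than they followed other shared DHSs. Of 2063 bins of 1 Mb, 1549 held a member and 1353 of those held 1 to 3, while 341 bins with 10 or more shared DHSs held none. The fullest bin lay on chromosome 2 from 114000001 to 115000000, where 11 of 16 shared DHSs were members (68.8%) and only 2 had DGFs in both tissues. Next came chromosome 5 from 180000001 to 181000000, where members were 10 of 27 shared DHSs, although the bin contained 86 bundle-sheath and 48 whole-leaf DGFs. Then followed chromosome 1 from 163000001 to 164000000 with 7 members of 14, which tied with 3 other bins at 7. Following a member along the chromosome, the next shared DHS was a member in 13.9% of cases (12.8% to 15.2%), compared with 9.74% (9.40% to 10.1%) after any other shared DHS.

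Counted as runs of successive shared DHSs, 2392 members stood alone, 316 runs had 2, 52 had 3, 8 had 4, and 1 had 5. The run of 5 lay on chromosome 10 from 97470615 to 97567553, with bundle-sheath widths of 1200 to 2909 bp and folds of 7.05 to 9.87. A pair of runs of 4 followed each other in the fullest bin of chromosome 2, from 114201843 to 114530333 and from 114536352 to 114794819, and the widths there were 502 to 1724 bp. The strongest member on chromosome 4 was itself part of a run of 4, from 172253710 to 172497889, in which bundle-sheath fold ranged from 6.26 to 51.0.

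Members were not isolated from other open chromatin. The nearest other DHS of either list was a median of 3099 bp away (2800 to 3483 bp) and 3549 bp for DHSs with DGFs in both tissues, and it was within 1 kb in 31.9% and 30.0% of cases. Distances over 50 kb were found in 6.31% of members and 5.05% of the footprinted class. The nearest DGF was a median of 11065 bp from a member, with distances to a DGF taken throughout from its bundle-sheath DHS. Since the rule puts every DGF outside the members, this distance has no like value in the footprinted class. It was over 10 kb away in 51.6% and within 1 kb in 11.9%. The closest lay 184 bp from the member on chromosome 3 from 144917004 to 144918225, 216 bp from that on chromosome 8 from 107480833 to 107482076, and 226 bp from that on chromosome 3 from 52311096 to 52311949. Counted separately, a margin of 100 bp around the DHSs of both tissues removed 0 members.

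The most isolated member lay on chromosome 8 from 31623477 to 31624298, with the nearest other DHS 762048 bp and the nearest DGF 834845 bp away. Its bundle-sheath fold of 11.8 and whole-leaf fold of 9.89 were above the members' medians. The others were on chromosome 1 from 266715365 to 266716921, 251704 bp from the nearest DHS with folds of 6.61 and 9.89, and between 61925832 and 61926226 on chromosome 7, 221220 bp from the nearest with folds of 8.50 and 7.64.

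The rule's threshold of 50% overlap divided regions with like values. Just inside it were a member of 1372 bp on chromosome 8 from 80680131 to 80681502, with an overlap of 50.04% and folds of 9.10 and 10.3, and members on chromosome 1 from 223161127 to 223161773 and on chromosome 10, positions 94398247 to 94400809, with 50.1% each. Just outside it, also with no DGF, were DHSs on chromosome 5 from 166877103 to 166879085 with an overlap of 49.97% and folds of 6.95 and 7.28, from 89359441 to 89361002 with folds of 10.4 and 8.54, and from 154156701 to 154157860 with folds of 7.08 and 9.44. Counting any overlap as shared gave 3786 members, or 10.7% of shared DHSs. Requiring 80% gave 2002, or 8.57%, and keeping only footprints stronger than the median score of each list gave 7347, or 23.2%.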

How the data were processed

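DNaseI-seq of *Z. mays* bundle sheath and whole leaf was analysed from deposited lists of DHSs and DGFs. Per the study's methods, the authors mapped reads with Bowtie2 to AGPv3 (the submitters' processing notes name Bowtie2, MACS2, and B73 RefGen_v3), removed low mapping qualities with SAMtools, called DHSs with MACS2, kept those passing an irreproducible discovery rate, and searched pooled replicates for DGFs with Wellington. Versions are not given in the sources used here. In the deposited DHS lists each region has a score, a fold enrichment (a ratio), −log10 p (not used) and −log10 q, and the position of its summit. Each deposited DGF has a Wellington score, more negative for a stronger footprint. The lists of enriched DGFs that the authors deposited hold positions only. Filtering by naked-DNA likelihood was not repeated, and whether the deposited DGF lists had passed it was not checked.

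Shared DHSs overlapped by at least 50% of both, each had 1 partner, and a DGF counted at 1 bp of overlap. Shares carry Wilson intervals and medians exact binomial order-statistic intervals, both 95%. They cover counting over listed regions only. No test was run, since the lists hold no replicates. Regions described singly followed a rule of extremes (fold, width, isolation, rank ratio, runs, bins, thresholds), with ties by position, and members and rules were chosen with earlier results of these data known. Counts were checked on simulated intervals and against BEDTools 2.31.1 (3 of 3 equal). Tables were handled in pandas 2.3.3 and NumPy 2.4.6 under Python 3.11.15, intervals came from SciPy 1.17.1, and plots from matplotlib 3.10.9. Alternatives covered overlap, thresholds, searched ranks, bands, and the comparison class. There were 0 columns of other samples.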

Additional observations from a re-analysis of the deposited data

Results flagged for a closer look

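The authors' deposited positions of DGFs enriched in 1 tissue, which no comparison above used, placed footprints inside some members although the full DGF lists have none there. Bundle-sheath-enriched positions lay in 35 members (1.09%, 95% Wilson interval 0.783% to 1.51%) and whole-leaf-enriched positions in 65 (2.02%, 1.59% to 2.57%) and 99 members held one of either kind. Among shared DHSs with DGFs in both tissues, 39.0% held a bundle-sheath-enriched and 29.2% a whole-leaf-enriched position, a contrast that the choice of the classes by their DGFs in large part fixes. Of the 15788 bundle-sheath-enriched positions on the 10 chromosomes 97 overlapped no listed DGF of either tissue, and 35 of these were in members. Of the 11418 whole-leaf-enriched positions 3487 overlapped none, and 70 of these were in members. The members concerned were wider than members at large, with median bundle-sheath widths of 1703 and 1537 bp against 1170 bp. Which list is the more complete was not tested.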

How the results depend on the processing

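The lower width of members and their larger share in chromosome middles kept their direction under each alternative run. Each of these compared members with shared DHSs that held DGFs of both tissues. The lower width depended on that class, since the median bundle-sheath width was 1170 bp for members, 946 bp with exactly 1 DGF, and 1320 bp with 3. The lower fold did not hold above the median −log10 q in either tissue, nor within bands of −log10 q in the bundle sheath. Sharing by 1 bp gave 10.7% members, a width ratio of 0.505, and a bundle-sheath fold ratio of 0.800. Sharing by 80% gave 2002 members, 8.57%, and ratios of 0.453 and 0.790. Footprints stronger than their list's median gave 7347 members, 23.2%, and fold ratios of 0.838 in bundle sheath and 0.741 in whole leaf. DHSs above the median −log10 q of both lists left 157 members, 1.07%, a width ratio of 0.428, and fold ratios of 1.00 (interval 0.955 to 1.00) and 0.992 (0.952 to 1.03). Whole-leaf ranks up to 32406 left 1183 members, 4.71%, and fold ratios of 0.825 and 0.865. Against DHSs with at least 2 DGFs of each tissue the ratios were 0.420 for width and 0.792 and 0.684 for fold. Within 5 bands of width the bundle-sheath fold ratio was 0.802, and within 5 bands of fold the difference in middle share was 7.65 percentage points. For the middle 40% that difference was 8.89. Within 5 bands of −log10 q, chosen after seeing the data, the width ratio was 0.545, the bundle-sheath fold ratio 1.10, and the whole-leaf ratio 0.830. Causes were not tested. Whole containment of DGFs, a margin of 100 bp, and footprints of the DHS's own tissue alone kept each of the 6 values within its interval or, for the count, within 1.5 times. No paired analysis was possible because replicates were combined in the lists, and for the same reason no replicate could be left out. Read depth is not part of the lists, and the study describes footprint detection in maize, unlike its other species, as short of saturation. It also names low complexity in 1 of the maize libraries. Whether a missing footprint was one not detectable in these libraries was not tested.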

Other observations

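The same rule gave far fewer regions in the other C4 species, whose deposited lists come from other libraries and assemblies. For *S. bicolor*, 208 of 24779 shared DHSs on 10 chromosomes held no DGF of either tissue (0.839%, 95% Wilson interval 0.733% to 0.961%), and in *S. italica* 182 of 25023 on 9 chromosomes (0.727%, 0.629% to 0.840%), compared with 10.2% in *Z. mays*. There too the regions without footprints were the narrower ones. Their median bundle-sheath width was 387 bp in the former species, where DHSs with DGFs in both tissues had 1614 bp, and 459 bp beside 1382 bp in the latter, ratios of 0.239 and 0.332 beside 0.476 in *Z. mays*. Fold enrichment differed less, with ratios of 0.893 and 0.933 beside 0.798. The median Wellington score of the bundle-sheath DGFs was −13.1 for *S. bicolor* and −14.7 for *S. italica*, as against −7.54 for *Z. mays*. The lists carry no read depth, and species, assembly, library, and depth cannot be told apart here.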
